A study of Homo sapiens with 4 samples.

Results

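Kinesins are motor proteins that move along microtubules with energy from ATP. Mitotic kinesins build the spindle, move chromosomes and separate the daughter cells, and their transcripts normally rise late in the cell cycle. Transport kinesins carry vesicles, mitochondria and other cargo, and conventional kinesin (kinesin-1) pairs a KIF5 heavy chain with a kinesin light chain (KLC) that binds the cargo. Hepatocyte-derived cells use them for secretion and for the sorting of membrane between cell surfaces.

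The genes described are the rows of the deposited expression table whose symbol is that of a kinesin motor (KIF with a number, or KIFC1 to KIFC3) or of a kinesin light chain (KLC1 to KLC4). This rule found 45 genes of 30863. Of them, 12 were set apart as mitotic (KIF2C, KIF4A, KIF11, KIF14, KIF15, KIF18A, KIF18B, KIF20A, KIF20B, KIF22, KIF23 and KIFC1). The remainder were placed by textbook role as 17 transport motors, 4 light chains and 12 other motors, the last mostly of cilia and signalling. KIF2B had no row in the expression table, so it was not analysed here.

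HepG2 is an established human liver cancer line, which the labels call hepatoblastoma, with wild-type genotype. Cells were exposed for 48 h to the solvent DMSO or to amentoflavone (AMF), a plant biflavonoid, and poly(A) RNA was sequenced in 2 libraries per group. The protocol gives a dose of 90 µM AMF, whereas the design text gives 80 µM and names Tub B as the agent, so compound and dose are uncertain and AMF is used here as the name of the group. The labels do not tell whether the 2 libraries of a group came from separate cultures, so each p-value rests on a spread that may be technical.

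Recovered totals ranged from 24226586 to 26966210 reads per library. The liver transcript ALB had 125341 and 117297 normalized counts in DMSO. The sum of 10 hepatocyte markers was 589045.4 and 569208.5 in DMSO and 416150.6 and 395055.0 in AMF, where 7 of them fell and 1 rose. Markers of other cell types (10 genes) summed to 12946.2 and 12241.9 in DMSO and 19241.7 and 20563.9 in AMF, with 4 risen and 2 fallen. Without the biliary keratin KRT19 they summed to between 4744.9 and 5066.1 in all 4 libraries. Of all tested genes 16.2% fell and 15.6% rose. Among those whose mean reached 100 normalized counts, 31.1% fell and 23.6% rose. All 10 hepatocyte markers and 4 of the other markers reached that mean. Among stromal markers, COL1A1 fell from 116 and 86.2 to 5.57 and 8.24 normalized counts, ACTA2 rose from 760 and 775 to 1173 and 1200, and DCN and COL3A1 lay at 0 to 1.03. The endothelial markers PECAM1 (145 and 185 to 289 and 277) and VWF (8 and 1.03 to 24.1 and 11.3) rose, the epithelial EPCAM fell, KRT7 did not pass at 2.05 to 9, and the macrophage marker CD68 lay at 0 to 2.79. Exons of CD68 overlap those of other genes by 1939 bases against 2189 exon bases, so its low count is uncertain. Mitochondrial reads made up 7.73% and 7.69% of the DMSO and 9.53% and 9.61% of the AMF libraries. The part of these shifts in the results below was not tested. Unless another scale is named, values are normalized counts, meaning reads divided by the size factor of the library. Each change is the AMF mean minus the DMSO mean of log2(normalized count + 1), given with its standard error (SE), and p-values are from limma-trend, adjusted by Benjamini-Hochberg over all 23828 genes tested, with 0.05 as the threshold. In such bulk samples, fewer cells in mitosis and less RNA per cell cannot be told apart.

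Because the mitotic kinesins fell together, the sequences before their transcription starts are shown first. Cell cycle genes with a late peak often carry a CCAAT box, bound by NF-Y, and downstream of it a cell cycle homology region (CHR), bound by the MuvB core of the DREAM and MYBL2-FOXM1 complexes. RefSeq promoter windows (GRCh38.p14, 250 bases before to 50 after a start) were found for 35 of the 45 genes, with 44 windows in all. Each window was searched on both strands for the CHR words TTTGAA and TTCGAA, for CCAAT, and for the E2F-type words TTTCCCGC, TTTGGCGC, TTTCGCGC and TTTGCCGC. The deposited values were made on hg19, so these coordinates belong to the RefSeq table alone. The stretches below end at the base before the start, read 5′ to 3′ towards the gene, and carry any such word in capitals on either strand (a CHR word reads TTCAAA and a CCAAT box ATTGG when on the other strand). KIF11, KIF18A, KIF4A, KIF22, KIF23 and KIF15 are shown because a CHR word lies before their start, KIF20A as a mitotic kinesin with CCAAT boxes alone, and KIF5B, with all 250 bases before its start, as the transport kinesin with a CHR word.
KIF11, chr10:92593010-92593129, plus strand: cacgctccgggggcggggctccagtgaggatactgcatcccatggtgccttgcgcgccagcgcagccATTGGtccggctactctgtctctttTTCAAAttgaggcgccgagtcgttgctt
KIF18A, chr11:28108157-28108276, minus strand: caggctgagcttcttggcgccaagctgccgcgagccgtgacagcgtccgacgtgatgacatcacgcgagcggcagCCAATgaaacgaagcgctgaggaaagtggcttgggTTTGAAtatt
KIF4A, chrX:70289984-70290103, plus strand: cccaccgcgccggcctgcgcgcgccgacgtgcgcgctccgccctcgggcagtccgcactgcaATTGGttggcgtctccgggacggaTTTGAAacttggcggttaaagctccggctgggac
KIF22, chr16:29790631-29790750, plus strand: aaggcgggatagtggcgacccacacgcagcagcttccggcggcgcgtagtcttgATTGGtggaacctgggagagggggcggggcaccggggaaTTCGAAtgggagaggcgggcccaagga
KIF23, chr15:69414229-69414348, plus strand: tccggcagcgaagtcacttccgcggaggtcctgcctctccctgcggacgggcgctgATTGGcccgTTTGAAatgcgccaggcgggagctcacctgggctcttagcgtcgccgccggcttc
KIF15, chr3:44761674-44761793, plus strand: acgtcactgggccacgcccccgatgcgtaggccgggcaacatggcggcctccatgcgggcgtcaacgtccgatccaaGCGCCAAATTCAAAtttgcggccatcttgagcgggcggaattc
KIF20A, chr5:138178992-138179111, plus strand: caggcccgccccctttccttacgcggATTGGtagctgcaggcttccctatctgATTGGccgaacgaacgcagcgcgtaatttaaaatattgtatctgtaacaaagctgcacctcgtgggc
KIF5B, chr10:32056426-32056675, minus strand: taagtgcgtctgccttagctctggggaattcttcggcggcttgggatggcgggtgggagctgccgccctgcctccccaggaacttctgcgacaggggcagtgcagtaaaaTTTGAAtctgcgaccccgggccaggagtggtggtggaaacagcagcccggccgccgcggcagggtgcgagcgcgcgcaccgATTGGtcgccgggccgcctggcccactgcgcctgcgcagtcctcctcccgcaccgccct

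A CHR word was present in a window of 10 of the 12 mitotic kinesins and of 1 of the 12 transport kinesins with a window, KIF5B, against 19.5% of the 27305 genes in the RefSeq table. CCAAT was present for 10 of 12 mitotic and 4 of 12 transport kinesins, against 39.7% of genes. Both words were present for 9 of 12 mitotic kinesins and for KIF5B alone among transport kinesins, against 7.85% of genes. Counted by window, 11 of 13 mitotic windows (84.6%) and 1 of 17 transport windows (5.88%) held a CHR word, and 16.4% of all 35116 windows did. The windows of KIF22 overlap and hold the same CHR word, which is counted in each. An E2F-type word was found for KIF15 alone among the mitotic kinesins (3.99% of genes have one), directly beside its CHR word.

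In the first window of each gene, the CHR words of the mitotic kinesins lay close to the start. KIF11, KIF4A and KIF14 had 20, 19 and 18 bases between the CCAAT box and the CHR word, and KIF18B, KIF18A and KIF22 had 29, 30 and 34. The spacing was 4 bases in KIF23, 45 in KIFC1 and 117 in KIF20B. The CHR words of KIF14, KIF18B, KIFC1 and KIF20B lay after the start, so with the 250 bases before the start alone 6 of 12 mitotic kinesins held one (17.2% of all genes). KIF5B had its CHR word at positions -140 to -135 from the start, on the far side of its CCAAT box at -59 to -55. Among the other motors, KIF24 and KIF4B had both words. The windows of KIF2C held none of the words, and the match or its absence says nothing of which factor binds.

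**Figure D1:**
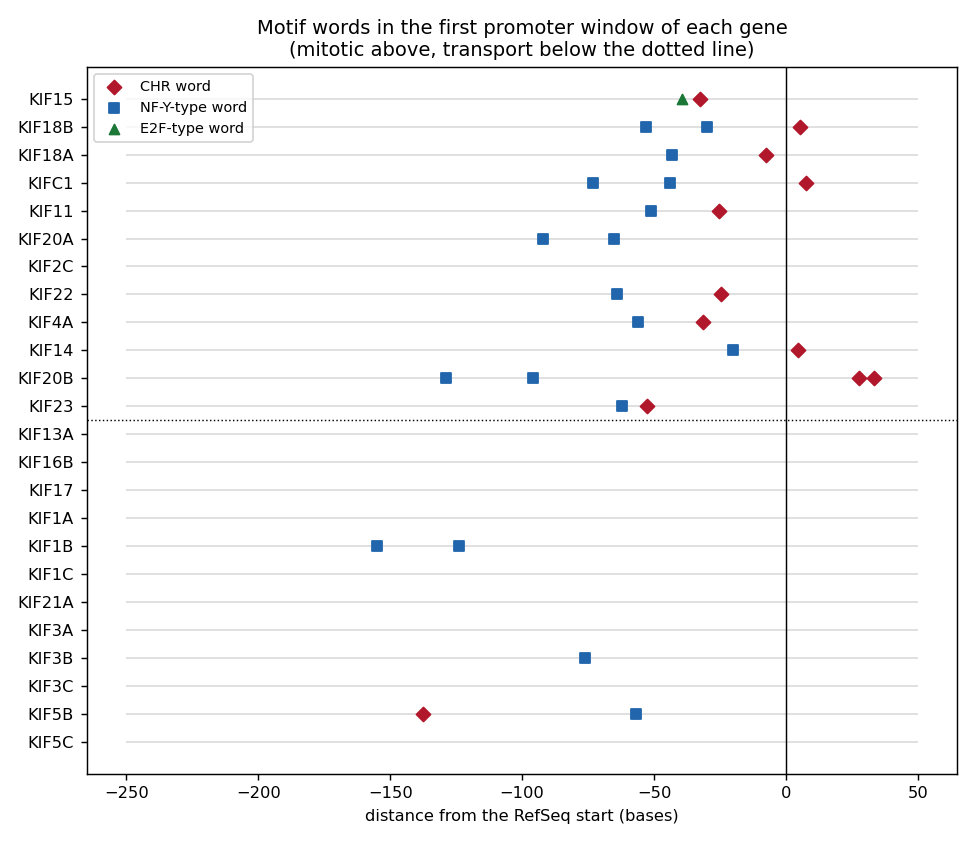
Positions of the motif words in the first RefSeq promoter window of each gene, with the distance from the start in bases on the x axis and 1 line per gene (12 mitotic kinesins ordered by log2 change above the dotted line, 12 transport kinesins below). Red diamonds are CHR words, blue squares CCAAT (the NF-Y type) and the green triangle an E2F-type word, and the CHR words of 10 mitotic kinesins lie between -55 and 36, with KIF5B alone among the transport kinesins.

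All 12 mitotic kinesins fell, by 15.7% (KIF23) to 45.9% (KIF15), with a median log2 change of -0.51. Across all genes tested, 16.2% fell and 31.8% changed in either direction. Among the 11137 genes whose mean reached 100, as that of all 12 does, 31.1% fell and 54.7% changed in either direction. The median log2 change of all tested genes was 0.04, and that of genes whose mean reached 100 was -0.04. In each of the 12 genes both AMF libraries lay below both DMSO libraries. The same held in 29.7% of all tested genes, and in 4965 of the 11137 genes whose mean reached 100. Groups did not overlap in either direction in 63.4% of all tested genes. With 1 library left out, limma-trend called fewer of the 12 and fewer of all tested genes, most so without AMF replicate 1 or 2. The median log2 change of the 12 was -0.56 without AMF replicate 1 and -0.45 without AMF replicate 2. It was -0.46 without DMSO replicate 1 and -0.57 without DMSO replicate 2.

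Kinesins that set up the 2 poles of the spindle fell most as a group, with a median log2 change of -0.68 over 3 genes. KIF15, a kinesin-12 that holds spindle poles apart alongside KIF11, had 1279.5 and 1168 in DMSO replicates 1 and 2 and 673 and 650.0 in AMF replicates 1 and 2. Its log2 change was -0.89 (SE 0.0721, adjusted p = 3.14e-07), the lowest of the 12. KIF11 (Eg5), the plus-end motor that slides the poles apart, had 3266 and 3193 in DMSO, then 2096 and 1982 in AMF. KIF11 changed by -0.66 (SE 0.0524, adjusted p = 2.30e-07), so the motor and its backup fell together. KIFC1 (HSET), a minus-end motor of the kinesin-14 family that pulls poles inward and clusters extra centrosomes, went from 2741 and 2668 in DMSO to 1733 and 1637 in AMF. Its change was -0.68 (SE 0.0549, adjusted p = 2.72e-07). The outward and the inward pole motor had overlapping 95% intervals, of -0.78 to -0.55 for KIF11 and -0.80 to -0.57 for KIFC1.

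Kinesins that act on chromosomes and on microtubule ends fell by a median of -0.50 over 5 genes, and the kinesin-8 pair fell most among them. KIF18B, which shortens astral microtubules, had 2288 and 2223 in DMSO against 1360.3 and 1266 in AMF, a change of -0.78 (SE 0.0591, adjusted p = 1.46e-07). KIF18A, which damps the swings of chromosomes at the spindle equator, had 435 and 489.7 in DMSO and 299 and 262 in AMF. Its change was -0.72 with a wider SE of 0.106 (adjusted p = 9.70e-05; 0.0637 without DMSO replicate 2), and it had the lowest level of the 12. KIF2C (MCAK), a kinesin-13 that does not walk but takes microtubules apart at centromeres, had 3332 and 3004 in DMSO and 2307 and 2160.2 in AMF, a change of -0.50 (SE 0.0597, adjusted p = 1.29e-05). The chromokinesins, which bind chromatin, followed. KIF22 (Kid), which pushes chromosome arms away from the poles, had 2999 and 2919 in DMSO and 2179 and 2069.6 in AMF (-0.48, SE 0.0525, adjusted p = 6.18e-06). KIF4A, which also limits the overlap of microtubules in the midzone, had 1570.4 and 1578 in DMSO and 1180.2 and 1106 in AMF (-0.46, SE 0.0618, adjusted p = 3.99e-05). In KIF4A the DMSO libraries nearly coincided.

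Kinesins of the midzone and of cytokinesis fell least as a group, with a median of -0.38 over 4 genes. KIF20A (MKLP2), which carries the chromosomal passenger complex to the midzone, had 1918 and 1776 in DMSO and 1362 and 1235 in AMF, a change of -0.51 (SE 0.0662, adjusted p = 3.11e-05). KIF14, which recruits citron kinase to the midbody, had 1115 and 1055 in DMSO and 797 and 859 in AMF (-0.39, SE 0.0706, adjusted p = 5.75e-04). KIF20B (MPP1), a relative of KIF20A that acts in late cytokinesis, had 2413 and 2120.1 in DMSO and 1723 and 1790.4 in AMF (-0.36, SE 0.0646, adjusted p = 4.79e-04). KIF23 (MKLP1), the motor of centralspindlin, had 1302 and 1168 in DMSO and 997 and 1084 in AMF, the smallest gap between the groups of the 12. It changed by -0.25 (SE 0.0725, adjusted p = 0.0175). The 95% interval of KIF23 (-0.40 to -0.09) did not reach that of KIF15 (-1.04 to -0.73), whereas those of KIF14 and KIF20B overlapped those of KIF2C, KIF22 and KIF4A. The order of the 3 role groups was not tested. Without DMSO replicate 1 the adjusted p was 0.236 for KIF23, 0.0721 for KIF14, 0.0548 for KIF20B and 0.0542 for KIF20A, and without DMSO replicate 2 it was 0.0856 for KIF23 and 0.0518 for KIF14.

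**Figure D2:**
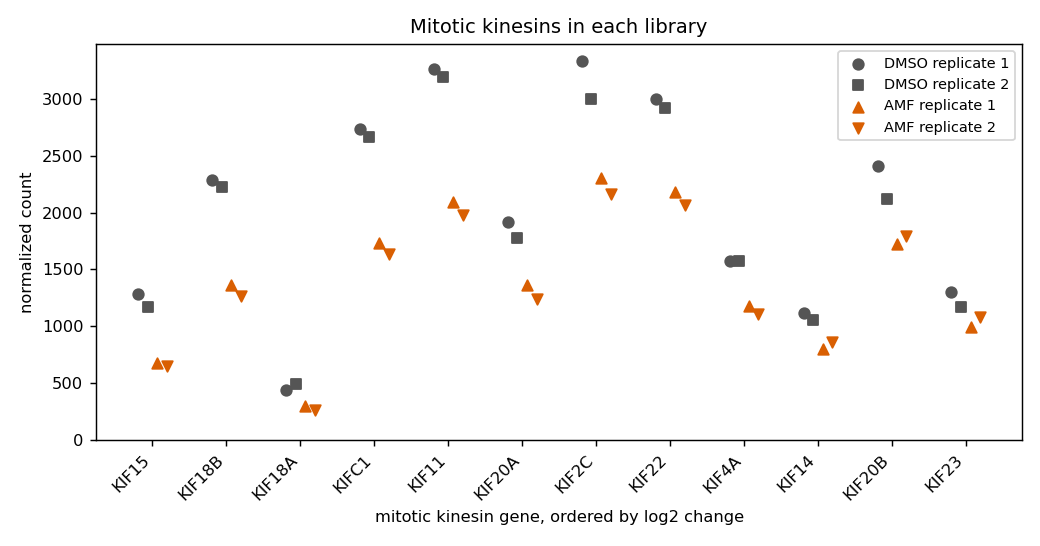
Normalized count of each of the 12 mitotic kinesins in each library, with genes on the x axis ordered by log2 change and 1 marker per library (grey DMSO, orange AMF). In each gene both AMF markers lie below both DMSO markers, most widely in KIF18B and KIF15 relative to their level and most narrowly in KIF23.

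Mitotic kinesins were higher in DMSO replicate 1 than in DMSO replicate 2 for 10 of 12 genes, by a median of 0.06 on the log2 scale. They were higher in AMF replicate 1 than in AMF replicate 2 for 9 of 12, by a median of 0.08. Of the 11137 genes whose mean reached 100, 5836 were higher in DMSO replicate 1 (median 0.007) and 5701 in AMF replicate 1 (median 0.003). In the mitotic kinesins, gaps between replicates reached 0.19 in each group. Their distance from the lower DMSO to the higher AMF library was 0.11 (KIF23) to 0.79 (KIF15). Exons of 7 of the 12 mitotic kinesins overlap those of another gene in GENCODE 29 (such as CDC23 and BRD8 at KIF20A). Without strand the reads of overlapping genes cannot be told apart.

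Transport motors did not move in 1 direction. Of 17, 6 fell, 2 rose and 9 did not pass, against 16.2% of all tested genes that fell and 15.6% that rose. Of the 14 whose mean reached 100, 6 fell and 1 rose, against 31.1% and 23.6% of genes at that level. The median log2 change of the 17 was -0.05. For the 14 it was -0.17, with 11 negative and 3 positive, against -0.04 for all genes at that level.

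KIF5B, the ubiquitous heavy chain of kinesin-1, had by far the most reads of the family. It counted 15410.2 and 15544 in DMSO and 10559.6 and 10609.6 in AMF. The replicates of each group lay close together while the level fell by 31.6%, a log2 change of -0.55 (SE 0.0371, adjusted p = 4.85e-08). KIF5A and KIF5C, the heavy chains best known from neurons, did not pass. KIF5A had 417 and 299.8 in DMSO and 318 and 286 in AMF (-0.23, 95% interval -0.52 to 0.07), so its DMSO libraries lay further apart than its group means. KIF5C had 20 to 28.8 in the 4 libraries. Per kilobase of merged exons, KIF5B made up 97.8% ± 0.486 (SD, n = 2) of the kinesin-1 heavy chains in DMSO and 97.2% ± 0.192 in AMF.

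Of the 4 light chains, 2 fell, 1 rose and 1 did not pass. Of all tested genes 31.8% changed in either direction, and 54.7% of those whose mean reached 100, as in 3 of the 4. KLC4 had 804 and 868 in DMSO and 534 and 483 in AMF, which is a log2 change of -0.72 (SE 0.0824, adjusted p = 9.57e-06). KLC3, best known from sperm, had 115 and 124 in DMSO and 55.7 and 50.5 in AMF (-1.16, SE 0.193, adjusted p = 2.89e-04). KLC1, the light chain named first and studied mostly in neurons, went the other way, from 756 and 747 to 855 and 887 (0.21, SE 0.0702, adjusted p = 0.0317). KLC2 had 1467 and 1459 in DMSO and 1649 and 1544 in AMF and did not pass (0.13, adjusted p = 0.134). In none of the 4 did the groups overlap. The same held in 63.4% of all tested genes, and groups overlapped in only 2234 of the 11137 genes whose mean reached 100. Per kilobase, KLC2 took 57.0% ± 1.14 of the light chain sum in DMSO and 67.7% ± 0.160 in AMF, and KLC4 took 27.7% ± 1.06 and 18.4% ± 0.488 (SD, n = 2 per group). The light chain sum itself was 469 ± 7.41 normalized counts per kilobase in DMSO and 430.4 ± 19.0 in AMF. The call for KLC1 ended whichever of the 4 libraries was left out (adjusted p from 0.111 to 0.157), and that for KLC3 ended without DMSO replicate 2 (0.0572). All 4 light chain genes have exons that overlap genes on the opposite strand, such as ERCC2 at KLC3 and CUL7 and MRPL2 at KLC4. The overlap was largest at KLC1, with 7817 bases against 19251 exon bases, and includes AL139300.1 on the same strand. Its part in the light chain shares was not tested.

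Kinesin-2, the motor of cilia and of endosomes and late secretory cargo, is a trimer of KIF3A, either KIF3B or KIF3C, and the adaptor KIFAP3. KIF3B had 3621 and 3847 in DMSO and 3295 and 3376 in AMF, and changed by -0.16 (SE 0.0496, adjusted p = 0.0214). KIF3C, its alternative partner, had 1477 and 1663 in DMSO and 1844 and 1869.7 in AMF, and rose by 0.24 (SE 0.0642, adjusted p = 0.00870). KIF3A, the shared subunit, had 527 and 550.3 in DMSO and 597 and 593 in AMF and did not pass (0.14, adjusted p = 0.198). The adaptor KIFAP3, which is outside the symbol rule, had 309.9 and 305 in DMSO and 464 and 582 in AMF, and rose by 0.76 (SE 0.110, adjusted p = 8.22e-05). The 2 partner subunits thus passed the test in opposite directions. Without DMSO replicate 1 the adjusted p was 0.108 for KIF3C, 0.0575 for KIF3B and 0.0788 for KIFAP3. Without DMSO replicate 2 it was 0.147 for KIF3B, with a change of -0.12, and 0.0842 for KIFAP3. Homodimeric KIF17 had 38.0 and 54.4 in DMSO and 75.2 and 62.8 in AMF and did not pass (0.59, adjusted p = 0.0941).

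Among motors of membrane traffic, KIFC3, a minus-end motor of epithelial cells that binds adherens junctions, had 2934 and 3287 in DMSO and 2225 and 2174 in AMF, a change of -0.50 (SE 0.0588, adjusted p = 1.24e-05). KIF13A, which positions recycling endosomes, had 2091 and 2128 in DMSO and 1592 and 1648 in AMF (-0.38, SE 0.0551, adjusted p = 8.15e-05). Smaller falls were seen in KIF21A (-0.19, adjusted p = 0.0137), which restrains microtubule growth at the cell cortex, and in KIF13B (-0.21, adjusted p = 0.0308). KIF13B had 1510.4 and 1619 in DMSO and 1276 and 1434 in AMF, and its call ended with a pseudocount of 0.1 (adjusted p = 0.0668), without the filter on low values (0.0755) and without DMSO replicate 1 (0.168) or 2 (0.324). KIF21A had 2353 and 2383 in DMSO and 2047 and 2118 in AMF, and did not pass without DMSO replicate 1 (adjusted p = 0.0860) or 2 (0.102). KIF1B and KIF1C, kinesin-3 motors of vesicles and mitochondria, had log2 differences of -0.05 (95% interval -0.14 to 0.04) and -0.04 (-0.14 to 0.05), and KIF16B, which moves early endosomes, one of -0.03 (-0.16 to 0.11). That of KIFC2 was 0.03 (-0.12 to 0.18). None of these 4 passed, and their intervals exclude changes of the size seen in KIF5B. KIF21B, at 112 to 196 in the DMSO libraries, did not pass (-0.19, interval -0.65 to 0.26).

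KIF1A, the neuronal kinesin-3 of synaptic vesicle precursors, was the transport motor that rose most. It had 8 and 13 reads in DMSO replicates 1 and 2 and 76 and 66 in AMF replicates 1 and 2, a read ratio of 6.52 after scaling (95% exact interval 4.11 to 10.9, counting error only). Its log2 change was 2.63 (SE 0.343, adjusted p = 3.17e-05), and 0.86 on the deposited log2 scale, which compresses low counts. Even in AMF its level of 4.15 normalized counts per kilobase ranked 38th among the 45 genes, against 0.639 in DMSO, which ranked 39th.

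**Figure D3:**
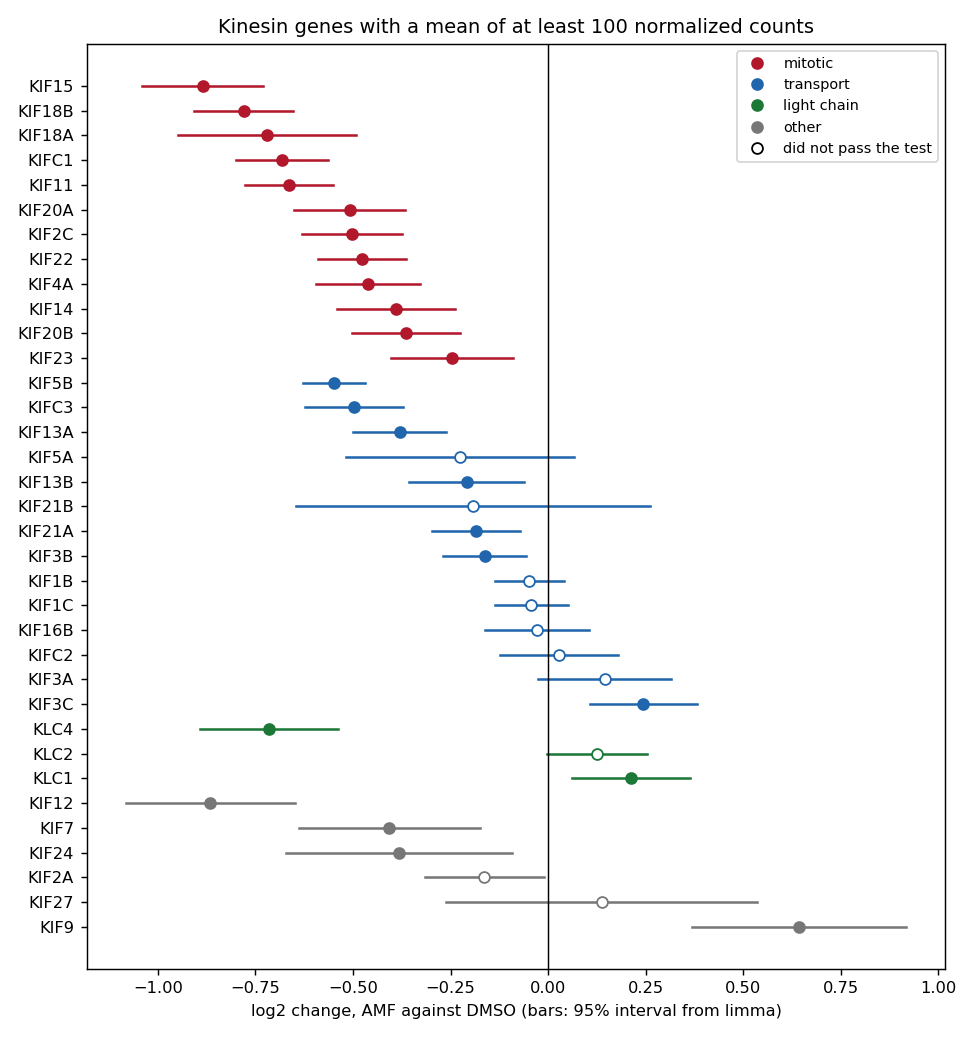
Log2 change of AMF against DMSO (x axis, with 95% intervals from limma as bars) for the 35 kinesin genes whose mean reached 100 normalized counts, coloured by class, with filled points where the adjusted p was under 0.05. All 12 mitotic kinesins lie left of 0, from -0.89 to -0.25, while transport motors run from -0.55 (KIF5B) to 0.24 (KIF3C).

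Of the 12 other motors, 9 were tested, of which 3 fell, 2 rose and 4 did not pass. Of the 6 whose mean reached 100, 3 fell and 1 rose, where 31.1% and 23.6% of all genes at that level did, so these few counts say little of the class. KIF12, an epithelial kinesin expressed in liver and kidney, had 423 and 442 in DMSO and 243 and 231 in AMF, which is a log2 change of -0.87 (SE 0.101, adjusted p = 1.09e-05), close to that of KIF15. KIF7, a regulator of Hedgehog signalling in the primary cilium, had 317 and 315 in DMSO and 229 and 247 in AMF (-0.41, SE 0.108, adjusted p = 0.00929). KIF24, a kinesin-13 at centrioles, had 231 and 237 in DMSO and 161 and 199.8 in AMF (-0.38, SE 0.135, adjusted p = 0.0429). The call for KIF24 ended with library totals as scaling (adjusted p = 0.0536), with a pseudocount of 0.1 (0.0692) and without the filter on low values (0.0784). Leaving out DMSO replicate 1 or 2 gave adjusted p-values of 0.241 and 0.282 for KIF24, and of 0.104 and 0.102 for KIF7. KIF2A, the sister of KIF2C that acts at spindle poles and in neurons, had 1015 and 1135 in DMSO and 955 and 962 in AMF and did not pass (-0.16, adjusted p = 0.102).

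KIF9, a motor of motile cilia, had 156 and 160.2 in DMSO and 232 and 264 in AMF, and rose by 0.64 (SE 0.128, adjusted p = 0.00123). Exons of KIF9 overlap those of the antisense gene KIF9-AS1 on the opposite strand, which had 64.0 and 72.9 in DMSO and 109 and 89.6 in AMF (0.52, adjusted p = 0.0576), and the part of antisense reads in the rise was not tested. The adjusted p of KIF9 with DMSO replicate 1 or 2 left out was 0.0748 and 0.0693. KIF26B, an atypical kinesin thought to lack motor activity, had 3 reads in each DMSO library and 12 and 13 in the AMF libraries, so that scaled AMF reads stood at 4.02 times those of DMSO (95% exact interval 1.61 to 12). Its test passed (adjusted p = 0.0337), but not with voom (0.0575), without the filter (0.0594) or without DMSO replicate 1 (0.117) or 2 (0.118). KIF27, at 90.3 to 126, and KIF6, at 3 to 9.29, did not pass. KIF4B, an intronless copy of KIF4A, had 3 reads over the DMSO and 3 over the AMF libraries, and is uncertain, since its reads could be shared with KIF4A. KIF19 had 4 reads, KIF25 1 and KIF26A 1, all in AMF replicate 1, and were not tested.

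Levels of different genes were compared per kilobase of merged GENCODE 29 exons. KIF5B stood first in both groups, with 2633 ± 16.1 normalized counts per kilobase in DMSO and 1801 ± 6.01 in AMF. In DMSO it was followed by KIF2C (869 ± 63.6) and KIF1C (838 ± 23.8), which did not differ beyond their spread. KIFC1 (809 ± 15.4) came next, with both libraries narrowly below those of KIF1C, and then KIF22 (686 ± 13.1) and KIF11 (664 ± 10.6), whose libraries lay close together without overlap. In AMF, KIF1C (813 ± 22.6) stood next to KIF5B, and KIF3B (547 ± 9.31) moved between KIF2C (613 ± 28.6) and KIFC1 (504 ± 20.2). Of the 10 genes with the highest level, 6 were mitotic in DMSO and 5 in AMF. KIF18A was the least abundant mitotic kinesin in both groups, with 99.0 ± 8.31 and 60.1 ± 5.66 (SD, n = 2 per group throughout). Merged exon length counts exons that HepG2 may not use, which lowers the level of genes with many isoforms such as KIF1B and KLC1.

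**Figure D4:**
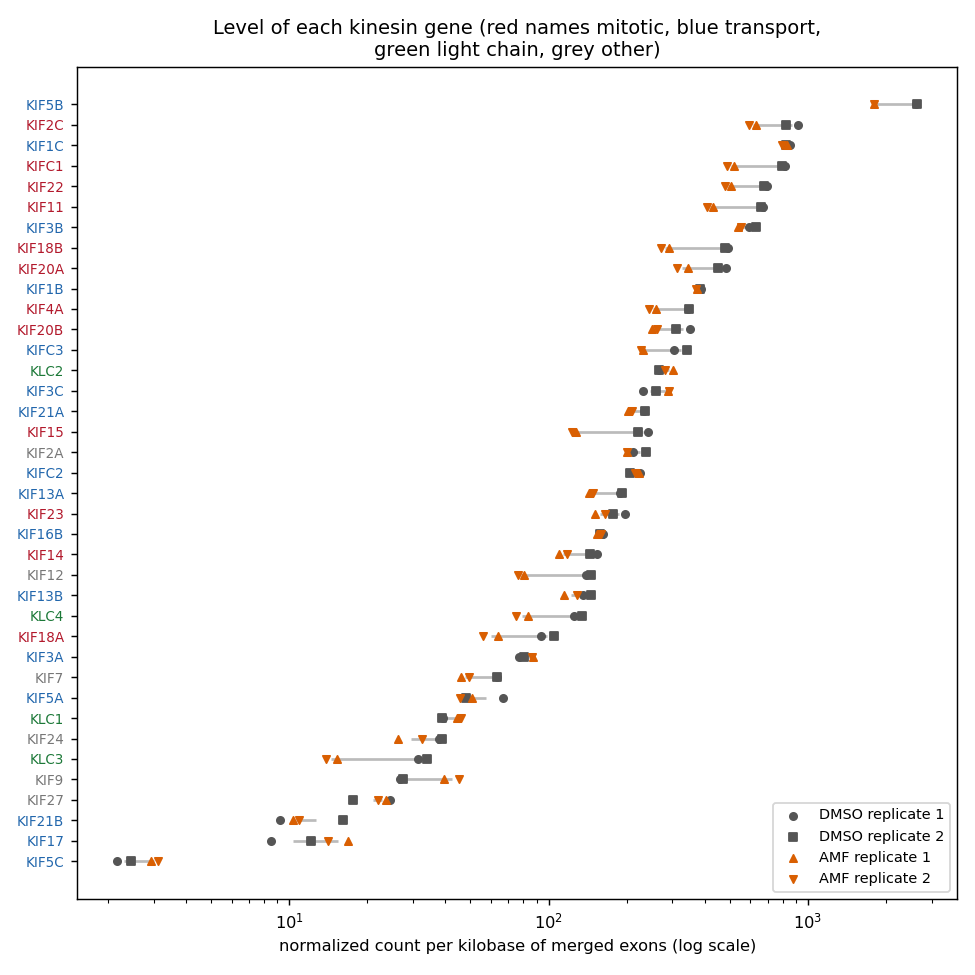
Normalized count per kilobase of merged exons (log scale) for the kinesin genes with at least 1 in DMSO, ordered by their DMSO mean, with 1 marker per library (grey DMSO, orange AMF) and gene names coloured by class. KIF5B stands first at 2633 in DMSO and 1801 in AMF, and the markers of KIF1C, KIF1B and KIF16B nearly coincide.

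Summed over the 41 motors, the level per kilobase was 12065.5 and 11896.5 in DMSO and 9174 and 9021 in AMF. The 12 mitotic kinesins accounted for 5462 and 5188 of it in DMSO and for 3688 and 3521 in AMF, so AMF stood at 0.677 of DMSO. KIF5B accounted for most of the lower sum of the transport motors. Transport motors without KIF5B summed to 3477 and 3532 in DMSO and to 3270.4 and 3266 in AMF, a ratio of 0.933. Mitotic kinesins thus made up 45.3% and 43.6% of the motor sum in DMSO and 40.2% and 39.0% in AMF, with no overlap between the groups. With 2 libraries against 2 a two-sided exact permutation test cannot give a p under 0.333, so no test is given for these sums.

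**Figure D5:**
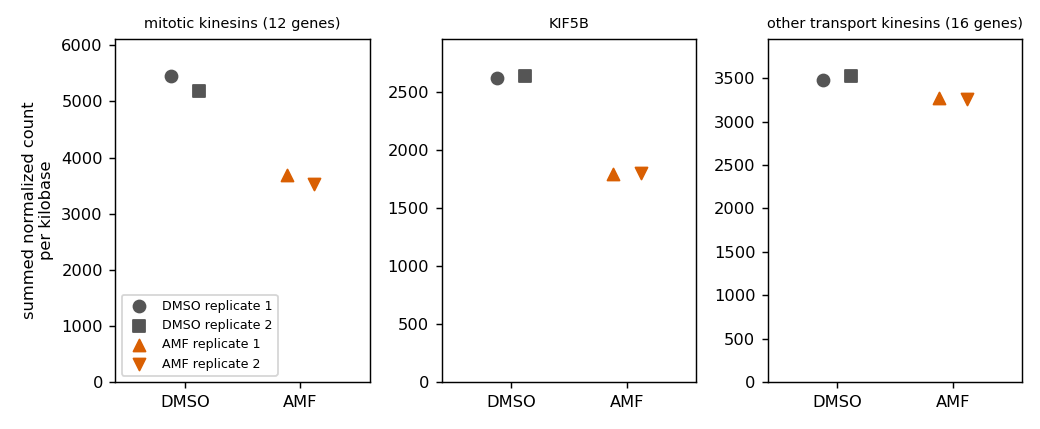
Summed normalized count per kilobase in each library for the 12 mitotic kinesins, for KIF5B and for the other 16 transport kinesins, with the group on the x axis and 1 marker per library. AMF libraries lie below DMSO libraries in each panel, at 0.677 of the DMSO mean for mitotic kinesins and 0.933 for transport kinesins other than KIF5B.

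Partners of the mitotic kinesins were compared in the same fit. Of 22 spindle and cytokinesis partners, 18 fell, 0 rose and 4 did not pass, with a median log2 change of -0.32, against 16.2% of all genes that fell (31.1% where the mean reached 100, as in 20 of the 22) and a median of 0.04. CENPE, the kinesin-7 of the kinetochore, whose symbol is outside the rule, had 1824 and 1749 in DMSO and 1135 and 1129 in AMF (-0.66, adjusted p = 8.80e-07), a change close to that of KIF11. The centromeric histone CENPA (-0.61) and the kinetochore protein CENPF (-0.57) fell next most. AURKA, the spindle pole kinase (0.03, adjusted p = 0.741), and HMMR, a microtubule-binding spindle factor (0.02, adjusted p = 0.879), were among the 4 that did not pass. PRC1 and NUSAP1 were the others, with DMSO means of 36.3 and 14.2. Their exons overlap those of other genes, by 3587 bases against 5525 exon bases in PRC1 and 1787 against 2875 in NUSAP1. Whether reads there were left uncounted was not tested, so these low levels are uncertain.

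Of 29 regulators and reference genes of cell cycle transcription, 21 fell, 1 rose and 7 did not pass, against 16.2% of all tested genes that fell and 31.1% of those whose mean reached 100, as in 28 of the 29. E2F1 (-0.90), E2F7 (-0.87) and MYBL2 (-0.77) fell most. FOXM1, the activator of genes of G2 and mitosis, had 2743 and 2488 in DMSO and 1942 and 1890.3 in AMF (-0.45, SE 0.0585, adjusted p = 3.23e-05). The gene that rose was CDKN1A, coding for the cell cycle inhibitor p21, at 3221 and 3033 in DMSO and 8059.9 and 8201 in AMF. These lists hold other late cell cycle genes and were chosen with earlier results known, so they are no independent support for the direction of the kinesins.

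The cargo side was mixed. Of 20 adaptors and regulators of transport kinesins in the table, 9 fell, 4 rose and 7 did not pass, with a median of -0.14. Of all tested genes 16.2% fell and 15.6% rose, and of those whose mean reached 100, as in 18 of the 20, 31.1% and 23.6%. MAPK8IP1 (JIP1), a scaffold that binds kinesin light chains, had 369 and 442 in DMSO and 243 and 248 in AMF (-0.71, adjusted p = 1.62e-04), whereas its relative MAPK8IP2 (JIP2) rose by 0.49. KIDINS220 (-0.64) and the light chain ligand CLSTN1 (-0.46) fell. Without DMSO replicate 1 the adjusted p of MAPK8IP2 was 0.0646. Of 27 tested genes of dynein and dynactin, the minus-end transport machinery, 5 fell (18.5%), 6 rose (22.2%) and 16 did not pass. Of all tested genes 16.2% fell and 15.6% rose, or 31.1% and 23.6% where the mean reached 100, as in 26 of the list. The share that fell thus lay near that of all genes and below that of genes at the same level. NDE1 (-0.82) and SPDL1 (-0.72), which bring dynein to kinetochores in mitosis, and the endosomal adaptor HOOK3 (-0.34) fell most. The light chain DYNLRB1 (0.48), the adaptor BICD2 (0.37) and the dynactin filament subunit ACTR1A (0.34) rose most. Without DMSO replicate 1 or 2 the adjusted p was 0.0648 and 0.0646 for DYNLRB1, and 0.0804 and 0.0901 for SPDL1.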

How the data were processed

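RNA of HepG2 cells was sequenced in 2 DMSO and 2 AMF libraries. The kit was non-directional, per the labels' protocols, so reads carry no strand. The submitters' processing notes name STAR 2.7.0, featureCounts and hg19. How genes were annotated, filtered and scaled is not given in the sources used here. Values in the table deposited by the authors are on a log2 scale and have the form of variance-stabilized counts with a shared floor. With f as that floor and V as a value, the normalized count is 2 to the power V, minus 2 times 2 to the power f, plus 2 to the power (2f - V). Divided by the worth of 1 read, 100% of values were whole within 0.01 reads, and the recovered size factors (0.971 to 1.08) equalled median-of-ratios factors. Of columns from other samples there were 0.

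Since the unit is log2, limma-trend (limma 3.58.1, R 4.3.3) was run on log2(normalized count + 1) for 23828 genes with a mean of at least 1, with the group as sole term. In simulated AMF against DMSO counts of 23048 genes it recovered 70.1%, 85.1% and 97% of genes changed 1.5-fold, 2-fold and 4-fold, with 4 false calls. The changed genes all had a mean of at least 10 and were far fewer than those that passed in the data. Every simulated gene had the same dispersion, so these rates need not hold for the real comparison. The 2 libraries per group limit the precision per gene, and read ratio intervals cover counting error only. Members, lists and tests were chosen with earlier results of these data known. Kinesins whose mean reached 100, and all 12 mitotic ones, have full statistics. Each partner list gives its 3 largest rises and falls that passed (mean of 10 or more), plus CENPE, KIFAP3, CDKN1A and FOXM1. 1 gene that this rule names is not reported here. AURKA, HMMR, PRC1 and NUSAP1 were named after their values were seen. Lengths and exon overlaps (23 of 45 genes overlap another) come from GENCODE 29 on GRCh38, and promoters from RefSeq (GRCh38.p14). A planned look at protein sequences was not run. Plots used matplotlib 3.10.9 (Python 3.11.15).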

Additional observations from a re-analysis of the deposited data

How the results depend on the processing

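Each mitotic kinesin was lower in AMF under each alternative run. All 12 passed with a pseudocount of 0.1, no filter, a mean of at least 10, the deposited log2 values, voom and library totals, and 11 passed at an adjusted p of 0.01. At 0.01 the calls were 5 of the transport kinesins (8 at 0.05) and 3 of the other motors (5 at 0.05), and without the filter 3 of the other motors. With single libraries left out, limma-trend called 0 to 9 mitotic, 0 to 5 transport, 0 to 1 other and 0 to 16 of all kinesins, and 0 to 13 mitotic partners, 0 to 7 cargo adaptors, 0 to 7 dynein and dynactin genes and 0 to 16 cell cycle transcription genes. The counts of 0 came without AMF replicate 1 or 2, where 10 mitotic kinesins had an unadjusted p under 0.05 in each fit, and the lone sample of a group is assumed to vary like the others. The mitotic median ranged from -0.5707 to -0.4498. With AMF replicate 1 and then AMF replicate 2 left out, voom called 6 and 5 mitotic, 1 and 1 transport, 1 and 1 other and 8 and 7 of all kinesins, 7 and 8 mitotic partners, 3 and 2 cargo adaptors, 1 and 2 dynein genes, and 6 and 6 cell cycle transcription genes, and without DMSO replicate 2 it called 3 other motors. With each single library left out, fewer of all tested genes passed as well, both with limma-trend and with voom. These counts therefore do not separate a loss of calls in the listed genes from a loss across all genes. The cause was not tested. Genes that had not passed changed sign: KIF16B (-0.0584 to 0.0026, and 0.0024 with voom), KIF21B (-0.5943 to 0.2088, 0.2077), KIF27 (-0.1005 to 0.3743, -0.0986), KIF5A (-0.4636 to 0.0107, 0.0143) and KIFC2 (-0.0376 to 0.0933, -0.0367). With bases before the start only, 53.8% of mitotic windows held a CHR word. Per kilobase, KIF5B was 22.0% and mitotic kinesins 44.4% of motors in DMSO, and without length scaling 21.0% and 32.6%. The deposited log2 scale compresses low counts and gave 0.86 for KIF1A, 0.31 for KIF26B and -0.57 for KLC3. Library totals moved the median of all genes by 0.02.

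With replicate number as a block, all 12 mitotic kinesins and 28 of the kinesins passed, the same counts as without it, and 8157 genes in all against 7578. The replicate numbers share nothing else in the labels, and the correlation of the replicate differences between the groups was 0.0238 over 11137 genes, so the block is no pairing by design.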
